A study of Mus musculus with 40 samples.

Results

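Cholesterol is built from acetyl-CoA in a long chain of enzymes that runs through mevalonate, isoprenoid units, squalene and lanosterol. The transcription factor SREBP2, encoded by Srebf2, is released from the endoplasmic reticulum when cells are short of sterol and switches on most genes of this chain, whereas oxysterols act through LXR receptors on genes of cholesterol export. Growing tumor cells need cholesterol for new membranes.

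The members are the 7 genes Hmgcs1, Idi1, Fdft1, Sqle, Lss, Cyp51 and Sc5d, taken by symbol from the 14318 genes of the normalized expression table, where each of the 7 has 1 row. All 7 encode enzymes of synthesis; although the set was labelled as synthesis and uptake, none of them takes up cholesterol, so uptake genes are described from a list apart. Expression was measured by RNA-sequencing in 39 primary tumors that grew from 4T1 or 66cl4 cells, both mouse mammary tumor lines that carry firefly luciferase and stand for triple-negative breast cancer. WT female BALB/c mice, mated at 8 weeks of age, received the cells into the milk ducts while lactating, more cells for 66cl4 than for 4T1, and tumors were taken at 5 w post-inoculation (p.i.). Mice of each model were untreated, received 200 µg anti-PD-1 antibody weekly, received 1 mg chitin particles every few days, both into the peritoneum, or received the combination, which gives 8 groups of 5 tumors, except for 4 untreated 4T1 tumors, as the RNA of the other one was degraded. Each model is 1 cell line, whole tumors hold host cells beside tumor cells, and no isotype antibody group was analysed here.

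Values are on the log2 scale of a variance stabilizing transformation (VST), on which a difference of 1 stands for somewhat more than a doubling at these levels. Inverting the transformation gave whole reads in 100% of values (within 0.001 read): the tumors held 5105898 to 14800352 reads on the listed genes, the middle value being 6590274. The members were read 119 to 1690 times per tumor. Among 66cl4 tumors the chitin-containing groups were sequenced more deeply than the others, at means of 9901574 and 6446900 reads. Nothing in the labels ties a tumor number to a shared litter or day, and each tumor is taken as 1 sample. The 5 epithelial markers, Krt18 among them, were read in every tumor, with summed normalized counts of 13716 to 50122 in 4T1 and 3366 to 5999 in 66cl4 tumors.

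In pathway order, Hmgcs1 (Entrez 208715, chr13:119690351-119708260, plus strand, mm10) makes HMG-CoA. Idi1 (Entrez 319554, chr13:8885606-8892396, plus strand) isomerizes the isoprenoid building unit. Fdft1 (Entrez 14137, chr14:63145150-63181687, minus strand) is squalene synthase and commits the chain to sterols. Sqle (Entrez 20775, chr15:59315092-59331193, plus strand) oxidizes squalene and is a rate-limiting step. Lss (Entrez 16987, chr10:76531565-76557139, plus strand) closes the rings to lanosterol, Cyp51 (Entrez 13121, chr5:4080674-4104697, minus strand) removes a methyl group from lanosterol, and Sc5d (Entrez 235293, chr9:42251592-42264300, minus strand) adds a double bond late in the chain.

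The sequence just before the start site that RefSeq's promoter table uses is shown for the 5 members with a RefSeq promoter entry (GRCm38.p6, the assembly named mm10), as the 7 genes mostly rose and fell together from tumor to tumor. Capitals mark the sterol regulatory element-like letters TCACNCCAC and the CCAAT box, the site of the factor NF-Y, each read on both strands (on the other strand CCAAT reads ATTGG). Positions count back from the base before the start site, and all sequences run 5′ to 3′ on the gene's strand. For Lss that start site lies inside the gene span given above, so the end of its stretch belongs to the gene.
Hmgcs1, chr13:119690171-119690350: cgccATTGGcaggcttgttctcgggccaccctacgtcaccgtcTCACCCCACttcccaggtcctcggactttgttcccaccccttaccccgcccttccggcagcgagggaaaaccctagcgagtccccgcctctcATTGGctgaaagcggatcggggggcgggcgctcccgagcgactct
Idi1, chr13:8885526-8885605: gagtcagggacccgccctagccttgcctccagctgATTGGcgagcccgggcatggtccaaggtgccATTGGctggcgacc
Lss, chr10:76531525-76531604: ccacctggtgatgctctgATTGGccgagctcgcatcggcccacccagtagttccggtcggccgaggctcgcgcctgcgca
Cyp51, chr5:4104698-4104777: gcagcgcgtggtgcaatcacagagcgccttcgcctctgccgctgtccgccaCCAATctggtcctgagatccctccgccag
Sc5d, chr9:42264301-42264380: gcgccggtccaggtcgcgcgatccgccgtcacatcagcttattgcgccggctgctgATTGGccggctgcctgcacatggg
The sterol regulatory element-like letters stood in 1 of the 5 promoters, that of Hmgcs1, at positions -137 to -129. They stood in 1.24% of all 32851 promoters of 300 bases. No other form of this element was searched for, so the other promoters are not shown to lack one. A CCAAT box stood in all 5 promoters, against 37.4% of all promoters, and a GC box (GGGCGG, on either strand) also in all 5, against 35.7%. Such matches are a description of these windows and do not show that a factor binds there.

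Levels of different genes were compared as normalized counts per kb of exon. Hmgcs1 was the most abundant member in both models, at 184 ± 40.6 per kb in 4T1 tumors (SD, n = 19) and 229 ± 47.8 in 66cl4 tumors (SD, n = 20), and the highest of the 7 in 14 and 18 tumors. The lowest place was held by Lss in 17 of 19 4T1 tumors (54.8 ± 15.4 per kb) and by Sc5d in 18 of 20 66cl4 tumors (59.7 ± 10.48). Between them in 4T1 tumors came Sqle (160 ± 45.9 per kb), Fdft1 (139 ± 23.1), Idi1 (127 ± 43.2), Cyp51 (121 ± 33.2) and Sc5d (68.4 ± 19.8). Neighbours from Hmgcs1 down to Cyp51 differed by less than their SD and kept that order in 11 to 14 of 19 tumors, whereas Cyp51 stood above Sc5d in 18 of 19. In 66cl4 tumors Idi1 ranked next to Hmgcs1 (194 ± 59.7 per kb), followed by Sqle (178 ± 41.5), Fdft1 (155 ± 21.6), Cyp51 (118 ± 32.7) and Lss (65.8 ± 8.97), and here Fdft1 exceeded Cyp51 in 19 of 20 tumors.

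**Figure D1:**
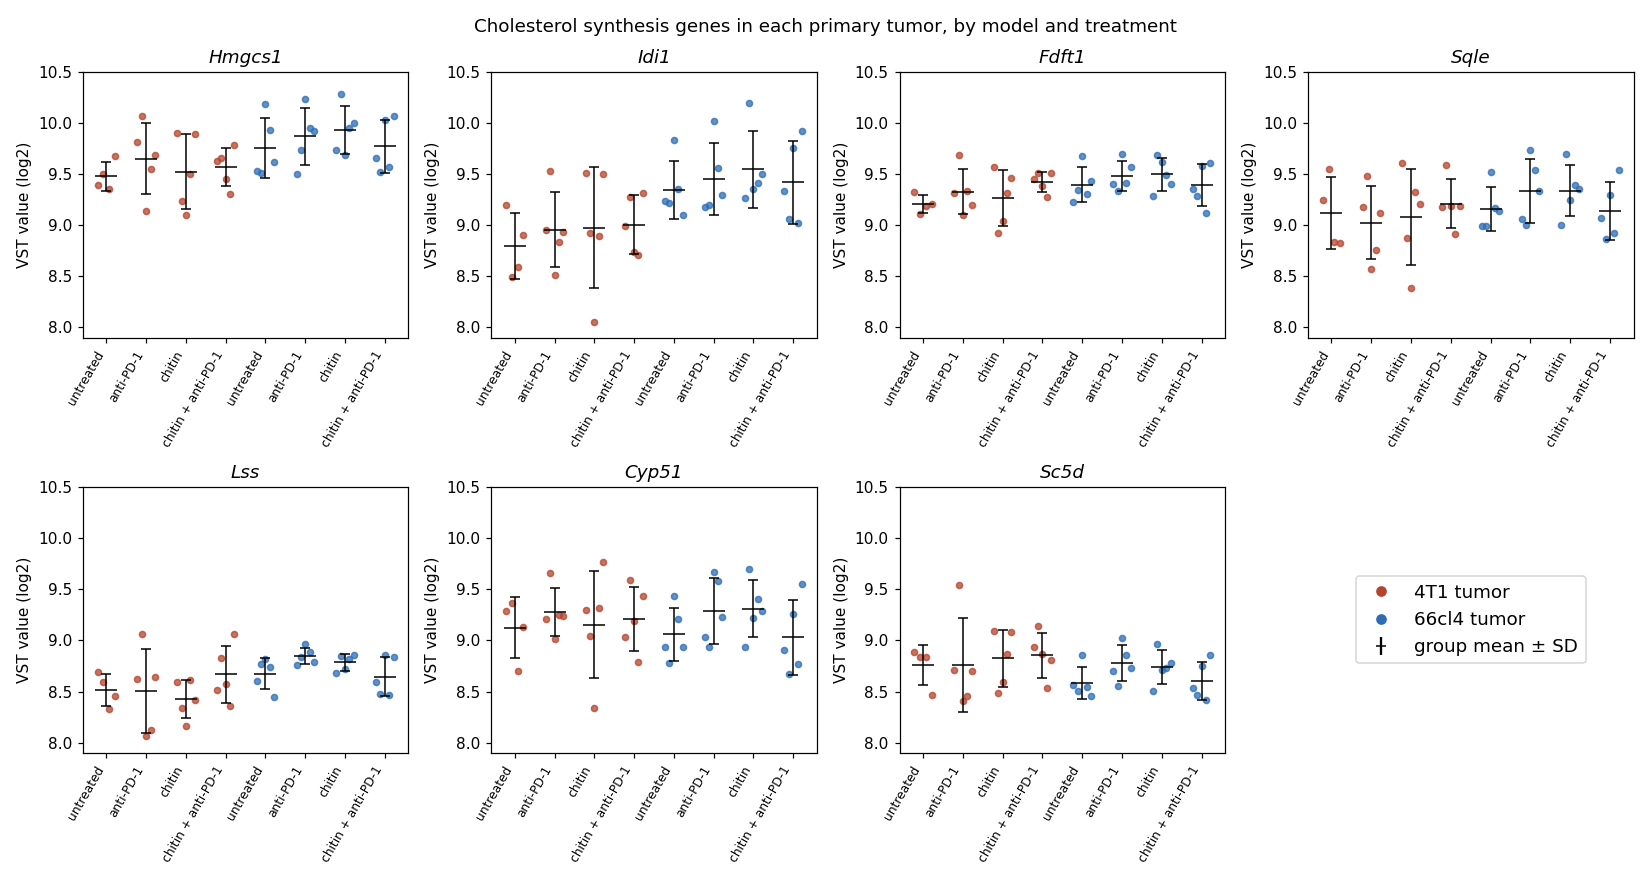
VST values (log2, vertical axis) of the 7 genes in each of the 39 tumors, grouped by treatment along the horizontal axis, with 4T1 tumors in red and 66cl4 tumors in blue and black bars for the group mean ± SD. Idi1 shows the largest offset between the models, with 4T1 group means of 8.80 to 9.01 and 66cl4 group means of 9.35 to 9.55, while treatment groups of 1 model overlap for every gene.

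The comparison of the models asks how the tumors of both lines differ irrespective of treatment. Over the 4 treatments, 4 of the enzymes were lower in 4T1 than in 66cl4 tumors: Idi1 fell by 0.51, Hmgcs1 by 0.28, Lss by 0.21 and Fdft1 by 0.13 on the log2 scale. Sqle, which acts between Fdft1 and Lss, and the late enzymes Cyp51 and Sc5d did not pass the test. Hence 4 of 7 members were called, all of them lower in 4T1 (limma, Benjamini-Hochberg adjusted over all genes, threshold 0.05), but 78.8% of all genes were called in this comparison, 38% lower and 40.8% higher in 4T1, so a call by itself does not set the members apart. Their median difference was -0.13, beside 0.015 over all genes. As these are whole tumors, fewer cells of a type and less RNA per cell cannot be told apart.

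Idi1 stood at 9.20, 8.50, 8.59 and 8.90 in untreated 4T1 tumors and at 9.24, 9.22, 9.83, 9.35 and 9.10 in untreated 66cl4 tumors. In mice given anti-PD-1 it stood at 8.96, 9.53, 8.52, 8.84 and 8.93 in 4T1 and at 9.18, 9.20, 10.02, 9.56 and 9.29 in 66cl4 tumors. Under chitin the 4T1 values were 9.51, 8.93, 8.05, 8.89 and 9.50, and the 66cl4 values 9.26, 10.20, 9.36, 9.41 and 9.50. Each treatment thus had a 4T1 tumor inside the 66cl4 range, although the 4T1 tumors were mostly lower. Under chitin + anti-PD-1 they were 9.0, 9.27, 8.74, 8.71 and 9.31 in 4T1 and 9.34, 9.06, 9.76, 9.02 and 9.92 in 66cl4 tumors. In normalized counts this was 385 ± 131 (SD, n = 19) against 588 ± 181 (SD, n = 20). The difference was -0.51 ± 0.12 (SE; 95% interval -0.75 to -0.27; limma adjusted p = 2.34e-04) and was called in each alternative fit and without each single tumor.

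Hmgcs1, at the entry of the pathway, ranged from 9.09 to 10.07 (median 9.55) in 4T1 tumors and from 9.50 to 10.28 (median 9.83) in 66cl4 tumors. The ranges overlapped widely, and the difference was -0.28 ± 0.085 (SE; limma adjusted p = 0.00381). Lss ranged from 8.07 to 9.07 in 4T1 and from 8.44 to 8.97 in 66cl4 tumors, a narrower span, with a difference of -0.21 ± 0.069 (SE; limma adjusted p = 0.00596). Both calls also held without each single tumor. Fdft1 ranged from 8.93 to 9.69 in 4T1 and from 9.12 to 9.69 in 66cl4 tumors, and its difference of -0.13 ± 0.058 (SE; limma adjusted p = 0.0324) was the least firm of the 4. Its adjusted p rose to between 0.0508 and 0.0593 when 1 of 9 tumors was left out: untreated tumor 2, anti-PD-1 tumor 3 or chitin tumors 2 or 3 of 4T1, or untreated tumor 3, anti-PD-1 tumor 3, chitin tumor 2 or chitin + anti-PD-1 tumors 3 or 5 of 66cl4.

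Sqle, Cyp51 and Sc5d gave no call. Sqle differed by -0.13 (95% interval -0.33 to 0.064; limma adjusted p = 0.205), Cyp51 by 0.018 (-0.19 to 0.23; limma adjusted p = 0.878) and Sc5d by 0.12 (-0.033 to 0.28; limma adjusted p = 0.141). The sign for Cyp51 turned under median centring, voom and array weights. Differences between members within a tumor are given as a description with no test, on the VST scale, which is not corrected for gene length, so that their zero has no meaning. Cyp51 minus Idi1 was -0.21 to 0.87 in 4T1 tumors (median 0.26) and -0.50 to 0.019 in 66cl4 tumors (median -0.28), with overlapping ranges. Sc5d minus Idi1 was -0.51 to 0.54 (median -0.17) and -1.23 to -0.48 (median -0.71), so that the ranges overlapped only at their ends. Idi1 was the member with the largest difference between the models, and against Hmgcs1 the ranges of Cyp51 overlapped more widely, at -0.76 to -0.066 (median -0.34) and -0.85 to -0.37 (median -0.71).

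**Figure D2:**
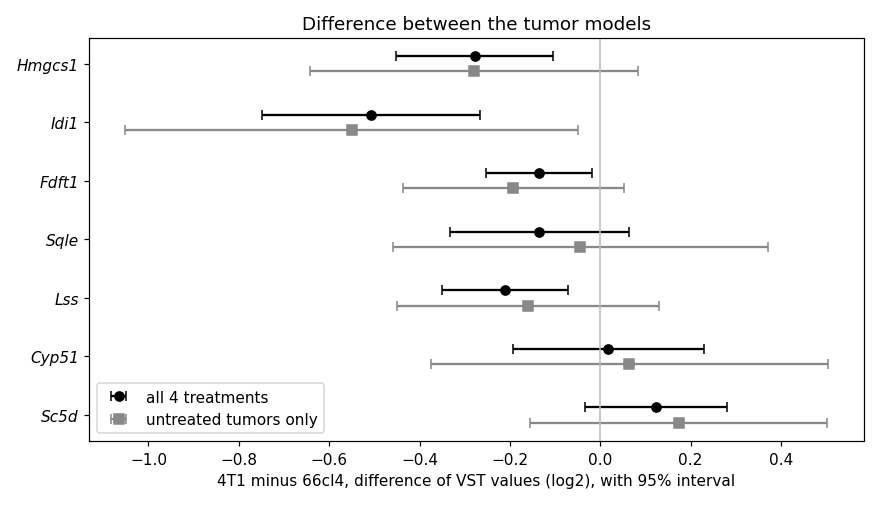
Difference 4T1 minus 66cl4 in VST values (log2, horizontal axis) for each gene in pathway order, as points with 95% intervals from limma, over all 4 treatments (black circles) and in untreated tumors (grey squares). Idi1, Hmgcs1, Lss and Fdft1 have black intervals below 0, whereas those of Sqle, Cyp51 and Sc5d cross it.

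In untreated tumors, 55.8% of all genes were called between the models (27.1% lower and 28.7% higher in 4T1), but none of the 7 members by limma, where 1 member had an unadjusted p below 0.05, and none by voom. That member was Idi1, with a difference of -0.55 ± 0.25 (SE; limma adjusted p = 0.0572). It passed when tumors of the other 6 groups were kept out of the fit (limma adjusted p = 0.0195), under median centring (0.0473), and when 1 of 5 tumors was left out: untreated 4T1 tumor 1 (0.0312), 4T1 anti-PD-1 tumor 2 (0.0483), 4T1 chitin tumor 3 (0.0337), untreated 66cl4 tumor 5 (0.0484) or 66cl4 chitin tumor 2 (0.0473). Its interval was -1.05 to -0.048. The other 6 members ranged from -0.28 (Hmgcs1) to 0.17 (Sc5d) in untreated tumors, each with a 95% interval that crossed 0.

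The rest of the synthesis chain was read from a list of 10 further enzymes, of which 5 were lower and 2 higher in 4T1 over the 4 treatments. Ebp, a sterol isomerase, differed by -0.33, Hsd17b7, a sterol ketoreductase, by -0.29, and Mvk, mevalonate kinase, by -0.24. Mvd, which decarboxylates mevalonate diphosphate, followed with -0.20, and Nsdhl, a sterol dehydrogenase, with -0.18. The higher ones were Pmvk, phosphomevalonate kinase, at 164 ± 33.7 normalized counts in 4T1 (SD, n = 19) and 51.0 ± 11.6 in 66cl4 tumors (SD, n = 20), a difference of 0.85, and Tm7sf2, a sterol reductase, at 0.13. Among 7 genes of sterol sensing, Srebf2 (-0.48) and the sterol carrier Stard4 (-0.46) were lower, and Scap (0.29), which escorts SREBP, and the protease Mbtps2 (0.25) were higher.

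All 7 genes of lipoprotein and cholesterol uptake were called, 5 lower and 2 higher in 4T1. Lrp1, a large endocytic receptor, showed a difference of -1.32, from 11653 ± 2114 normalized counts in 66cl4 to 4677 ± 1339 in 4T1 tumors (SD, n = 20 and 19). Vldlr (-0.36), Mylip (-0.35), Lipa (-0.34) and Lrp8 (-0.27) were lower as well, whereas Npc2 (0.40), which moves cholesterol out of lysosomes, and Scarb1 (0.24), the receptor for high-density lipoprotein, were higher. Mylip, a ubiquitin ligase that removes lipoprotein receptors and is itself induced by LXR, has the opposite role to the receptors of this list. Among 7 genes of efflux, esterification and LXR, Soat1 (0.55), which esterifies cholesterol, and Ch25h (0.46) were higher and Cyp27a1 (-0.38) and Nr1h2 (-0.088) lower. Of 8 fatty acid synthesis genes Fasn (0.80), Acly (0.28) and Srebf1 (0.19) were higher and Scd2 (-0.54) and Me1 (-0.34) lower, and of 6 genes of the non-sterol isoprenoid branch Coq2 (0.27) was higher and Dhdds (-0.28), Fntb (-0.18), Pggt1b (-0.18) and Ggps1 (-0.13) lower. These counts stand beside the 78.8% of all genes called.

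Markers of cell types and of proliferation differed between the models at the same time. In whole tumors this can be cell number or RNA per cell, which cannot be told apart. Markers called higher in 4T1 tumors over the 4 treatments comprised all 5 of epithelium, all 3 measured of lactating epithelium, 5 of 6 of neutrophils, all 5 of T-cells, all 5 of adipocytes, 4 of 5 of skeletal muscle, 4 of 5 of endothelium and both measured of keratinized skin, while 2 of 5 fibroblast markers were higher and 1 lower. All 6 macrophage markers were lower, as were 3 of 5 proliferation markers, with 1 higher. The summed normalized counts of the macrophage list ranged from 4135 to 27093 in 4T1 and from 21987 to 40437 in 66cl4 tumors, and those of the proliferation list from 2755 to 8845 and from 4845 to 8240. Their part in the differences of the 7 members was not tested.

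Treatment left no called difference in any member. The question here was whether anti-PD-1, chitin or both altered the pathway within a model. In each of the 8 treatment comparisons, 0% of all genes were called by limma, and the number at an unadjusted p under 0.05 was 367 to 1273 in 4T1 and 767 to 2238 in 66cl4 tumors, whereas voom on the recovered reads also called none. Among the members the smallest unadjusted p was 0.0490, for Lss under anti-PD-1 in 66cl4 tumors (limma adjusted p = 0.911). Lss stood at 8.60, 8.77, 8.82, 8.74 and 8.44 in untreated and at 8.76, 8.83, 8.97, 8.89 and 8.79 in anti-PD-1-treated 66cl4 tumors. The groups overlapped, and the difference was 0.17 ± 0.082 (SE).

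In 66cl4 tumors all 7 members had positive values under anti-PD-1 (0.085 to 0.23, median 0.17) and under chitin (0.099 to 0.25, median 0.17), both set against the same untreated tumors. The members varied together from tumor to tumor (median r 0.84 over their pairs), so 7 values of 1 sign are not 7 independent results. Under chitin + anti-PD-1 the values were -0.031 to 0.072 with a median of -0.0089. Without untreated tumor 3, the highest of its group, these medians were 0.22, 0.27 and 0.068, whereas without anti-PD-1 tumor 3 the first was 0.072 and without chitin tumor 2 the second was 0.088. The smallest adjusted p of a member under chitin, over all alternatives and tumors left out, was 0.272 (limma). Cyp51 under chitin had the largest value of the 66cl4 comparisons, from 8.93, 8.78, 9.44, 9.21 and 8.94 in untreated to 8.94, 9.70, 9.22, 9.41 and 9.28 in chitin-treated tumors, with overlapping groups and a difference of 0.25 (95% interval -0.12 to 0.62).

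In 4T1 tumors the median difference from untreated was 0.12 under anti-PD-1, 0.044 under chitin and 0.098 under chitin + anti-PD-1. All 7 members had positive values under the combination (0.086 to 0.22), and 5 of 7 under each single agent. Here too the members varied together (median r 0.74 over their pairs). Fdft1 under the combination was the member with the smallest unadjusted p in that comparison, 0.10 (limma), with values of 9.32, 9.11, 9.18 and 9.20 in untreated and 9.45, 9.51, 9.38, 9.28 and 9.51 in treated tumors. Of these, 1 of 5 treated tumors lay inside the untreated range, and the difference was 0.22 ± 0.13 (SE; limma adjusted p = 1). Leaving out anti-PD-1 tumor 2 lowered the anti-PD-1 median to 0.014, and leaving out chitin tumor 5 or 3 moved the chitin median to -0.048 or 0.14. When both chitin-containing groups were pooled against the others, the member medians were 0.077 in 4T1 and -0.0031 in 66cl4 tumors, and the 95% intervals of all members lay between -0.35 and 0.49 and between -0.26 and 0.38. The difference of this chitin effect between the models was tested directly and called 0 of 7 members (0.0978% of all genes; smallest unadjusted p of a member 0.515, Fdft1). None of the 45 genes of the pathway lists and none of the marker genes was called in any treatment comparison. The smallest unadjusted p of the pathway lists was that of Vldlr, a lipoprotein receptor, at -0.34 ± 0.096 (SE) under chitin + anti-PD-1 in 66cl4 tumors (limma adjusted p = 0.287). Marker lists reached smaller ones. Under anti-PD-1 the smallest unadjusted limma p was 2.4e-04 in 4T1 tumors, for the T-cell marker Cd2. In 66cl4 tumors it was 2.8e-04, for the macrophage marker Adgre1, and only 1 of 6 macrophage markers was under 0.05 there. In the 4T1 comparison under anti-PD-1 all 5 T-cell markers had an unadjusted limma p under 0.05, with a median difference of 0.71. So had all 3 measured lactating epithelium markers (median 1.99) and 4 of 5 adipocyte markers (1.73), beside 8.89% of all genes.

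**Figure D3:**
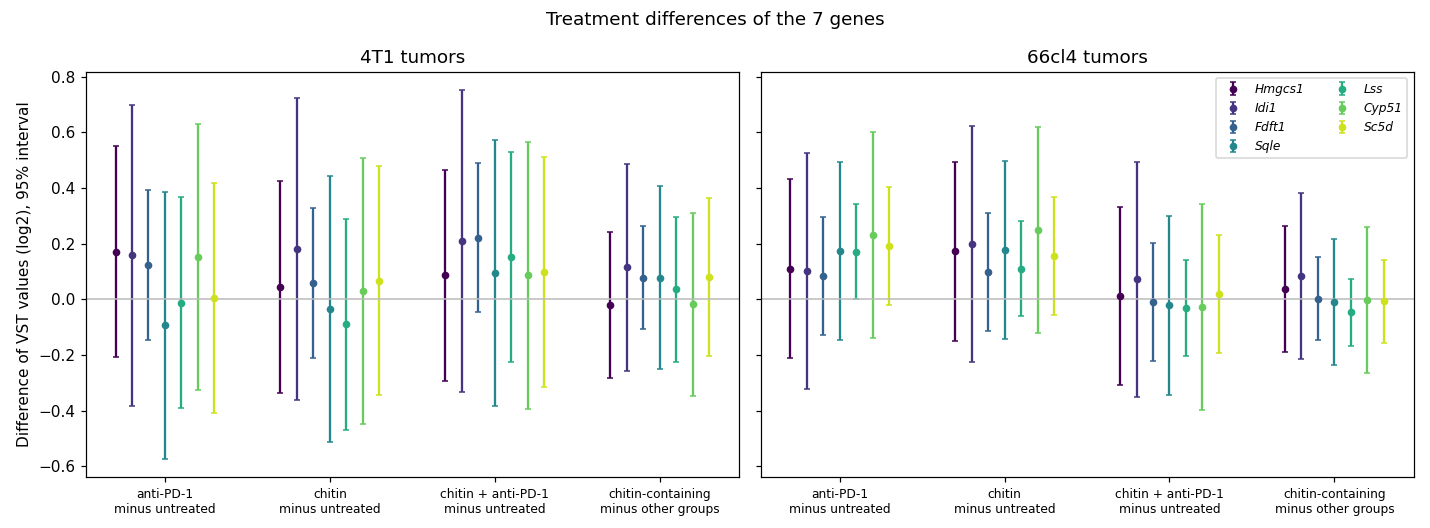
Difference between treatment groups in VST values (log2, vertical axis) for the 7 genes, coloured by gene, with 95% intervals from limma, in 4T1 tumors (left) and 66cl4 tumors (right). The 66cl4 points under anti-PD-1 and under chitin all lie above 0, at 0.085 to 0.25, yet the genes varied together and no comparison gave a call.

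The spread between tumors of 1 group was larger than for most genes. The pooled SD within groups was 0.42 for Idi1, 0.36 for Sqle and Cyp51, 0.31 for Sc5d, 0.29 for Hmgcs1, 0.28 for Lss and 0.19 for Fdft1 in 4T1 tumors, beside a median of 0.19 over all genes. In 66cl4 tumors it was 0.36 for Idi1, 0.31 for Cyp51, 0.27 for Hmgcs1 and Sqle, 0.17 for Fdft1 and Sc5d and 0.14 for Lss, beside a median of 0.11. Idi1 thus exceeded 97.5% of all genes in 66cl4 and 90.8% in 4T1 tumors, while Fdft1 stood near the middle in 4T1 tumors (52.1%).

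The members mostly rose and fell together from tumor to tumor, and 7 of 8 groups held a tumor in which at least 5 of them were at an end of the group. In 5 of 39 tumors all 7 genes were at the same end of their group, and in 19 of 39 all 7 lay on the same side of the group mean, 8 above and 11 below. Untreated 66cl4 tumor 3 was the highest of its group in all 7 members, with a mean over the members of 9.48 against 9.01 to 9.18 in the other tumors. Likewise 66cl4 anti-PD-1 tumor 3 was the highest in all 7, at a mean of 9.62 against 9.08 to 9.40. Among 4T1 tumors given anti-PD-1, tumor 2 was the highest in all 7 (mean 9.58) and tumor 3 the lowest in all 7 (mean 8.69), with the others at 8.90 to 9.11. Tumor 4 was the lowest in all 7 under chitin + anti-PD-1 in 4T1, at a mean of 8.84. In other groups, 66cl4 chitin tumor 2 was the highest in 6 and tumor 1 the lowest in 6, 66cl4 chitin + anti-PD-1 tumor 5 the highest in 6, and 4T1 chitin tumors 1 and 3 the highest and the lowest in 5. The untreated 4T1 tumors did not show this: no tumor was the highest or the lowest in more than 4 members, and tumor 2 was the highest in 2 and the lowest in 2.

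**Figure D4:**
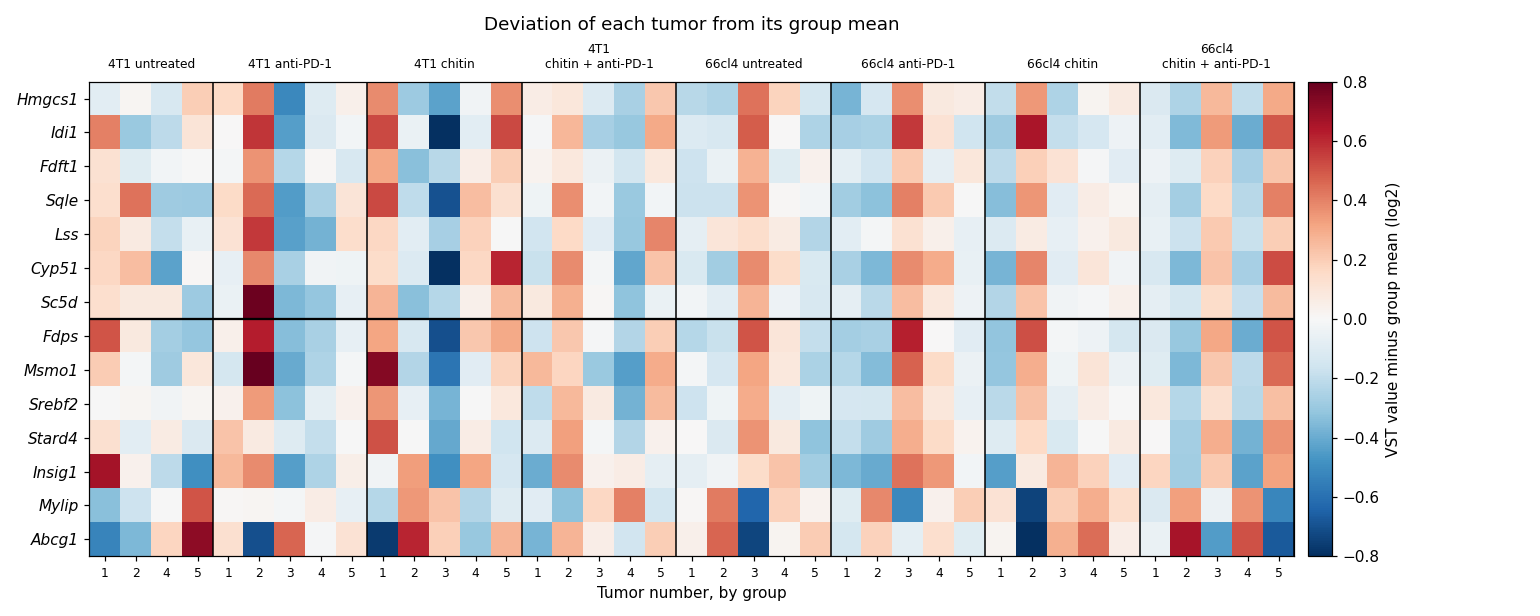
Deviation of each tumor from its group mean in VST values (log2, colour, red above and blue below), with tumors as columns in their 8 groups and genes as rows, the 7 members above the line and 7 other genes of sterol metabolism below it. Columns such as 66cl4 untreated tumor 3 are red throughout the members, Fdps, Msmo1 and Srebf2 and blue for Mylip and Abcg1.

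Pairwise correlation put numbers on this. On values minus the group mean, all 21 pairs of members were positively correlated in both models: Pearson's r was 0.62 to 0.85 in 4T1 tumors (median 0.74, n = 19) and 0.61 to 0.98 in 66cl4 tumors (median 0.84, n = 20), and Spearman's rho was 0.63 to 0.86 (median 0.72) and 0.61 to 0.97 (median 0.79). All 42 pairs passed 0.05 by r and by rho after Benjamini-Hochberg adjustment over the 42, with tumors permuted 100000 times within their groups (two-sided), and the largest adjusted permutation p for r was 0.0179. Without the 2 tumors farthest from the median of the first gene of a pair, r was still 0.52 to 0.82 in 4T1 and 0.49 to 0.97 in 66cl4 tumors. The median r of a member with all other genes was -0.025 and -0.013. As positive and negative r offset in such a median, it does not show how unusual the correlations among the members are.

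Sqle and Cyp51, which act on both sides of lanosterol formation, were the closest pair in 66cl4 tumors (r = 0.98, rho = 0.97, permutation p = 1e-05 for each, the smallest that the permutations can give). In 4T1 tumors the same pair had r = 0.79 and rho = 0.76 (permutation p = 4.6e-04 and 5.4e-04), and this difference between the models was not tested. Fdft1 and Lss were the loosest pair in 66cl4 tumors (r = 0.61, rho = 0.61, permutation p = 0.0179 and 0.0159), falling to r = 0.49 without the 2 farthest tumors. Cyp51 and Sc5d were the loosest in 4T1 (r = 0.62, rho = 0.65), although in 66cl4 tumors they reached r = 0.94.

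Other measures of the tumors moved with the members and are given as a description with no p, from 24 relations computed. The mean deviation of the 7 members correlated with the summed proliferation markers at r = 0.67 (rho = 0.72) in 4T1 and r = 0.66 (rho = 0.49) in 66cl4 tumors, and at 0.66 and 0.53 without the 2 farthest tumors. Endothelial markers gave r = -0.63 (rho = -0.56) and -0.43 (rho = -0.40), and -0.57 and -0.58 without the 2 farthest. Skeletal muscle markers gave r = -0.42 (rho = -0.40) in 4T1 and 0.64 (rho = 0.56) in 66cl4 tumors, of opposite sign. Keratinized skin markers gave r = -0.20 (rho = -0.15) and -0.56 (rho = -0.60), and macrophage markers -0.48 (rho = -0.59) and -0.21 (rho = -0.21). T-cell markers gave r = -0.19 and -0.46, and epithelial markers 0.38 and 0.44. Reads per tumor (log2) gave -0.40 and 0.46, and -0.49 and 0.26 without the 2 farthest. After regression on the proliferation markers, an alternative chosen after seeing the data, the median r over the 21 pairs was 0.61 in 4T1 and 0.77 in 66cl4 tumors, with lowest pairs of 0.43 and 0.40. Regression on reads per tumor gave 0.71 and 0.81. No marker list other than proliferation was regressed out, and the part of the others was not tested.

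The genes most like the 7 members were sought among the 14311 other genes by the mean Pearson's r with the members over all 39 tumors, on values minus the group mean. Fdps, farnesyl diphosphate synthase, ranked highest with a mean r of 0.84, followed by Msmo1, a sterol methyl oxidase, with 0.83. Srebf2 itself reached 0.82 (rank 4). Within each model these 3 were among the 5 highest: Fdps reached 0.90, Msmo1 0.89 and Srebf2 0.88 in 66cl4 tumors, and 0.81, 0.80 and 0.78 in 4T1 tumors. Cdk1, a cell cycle kinase (0.69, rank 7), 4930483K19Rik (0.69, rank 8), Hsd17b7 (0.68, rank 9) and Stard4 (0.68, rank 10) complete the genes reported, with those between not reported here. Cdk1 ranked 15 in 4T1 and 130 in 66cl4 tumors, whereas Stard4 ranked 263 in 4T1 and 8 in 66cl4 tumors. The median of this mean r over all other genes was -0.028.

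Across the pathway lists, the other synthesis enzymes followed the members most closely, with a median mean r of 0.63 over the 10 genes, 5 of them among the 50 genes most alike. Ebp stood at -0.047 (-0.13 in 4T1 and 0.29 in 66cl4 tumors), and Tm7sf2 stood at 0.33. Sterol sensing divided, with Srebf2, Stard4 and Insig1 (0.56), a sterol-responsive anchor of SREBP, on the positive side and Scap (-0.097), Insig2 (-0.17) and Mbtps1 (-0.22) on the negative side. The Insig genes parted most in 66cl4 tumors, where Insig1 reached 0.73 and Insig2 -0.57. Fatty acid synthesis genes had a median of 0.16, led by Elovl6 (0.55), and the isoprenoid branch 0.15, led by Pdss1 (0.52).

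Several genes of LXR and export ran the other way. The list of efflux, esterification and LXR genes had a median mean r of -0.39, with Abcg1, a sterol exporter and LXR target, at -0.56 (-0.46 in 4T1 and -0.71 in 66cl4 tumors) and Nr1h3, which encodes LXR alpha, at -0.42, whereas Soat1 (0.23) and Ch25h (0.22) were positive. Mylip stood at -0.60 (-0.50 and -0.74), rank 14298 of 14311. Uptake genes had a median of -0.15, from Mylip to the lipoprotein receptor Lrp8 at 0.67 (rank 14). In the efflux list Apoe (-0.51), Cyp27a1 (-0.39) and Nr1h2 (-0.18) were negative as well. The members also correlated with macrophage markers, at r = -0.48 in 4T1 and -0.21 in 66cl4 tumors. The part of cell composition in the relations of these genes was not tested. Abcg1, Apoe, Nr1h3, Insig1, Insig2, Mbtps1, Elovl6 and Pdss1 were singled out after their values were seen.

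**Figure D5:**
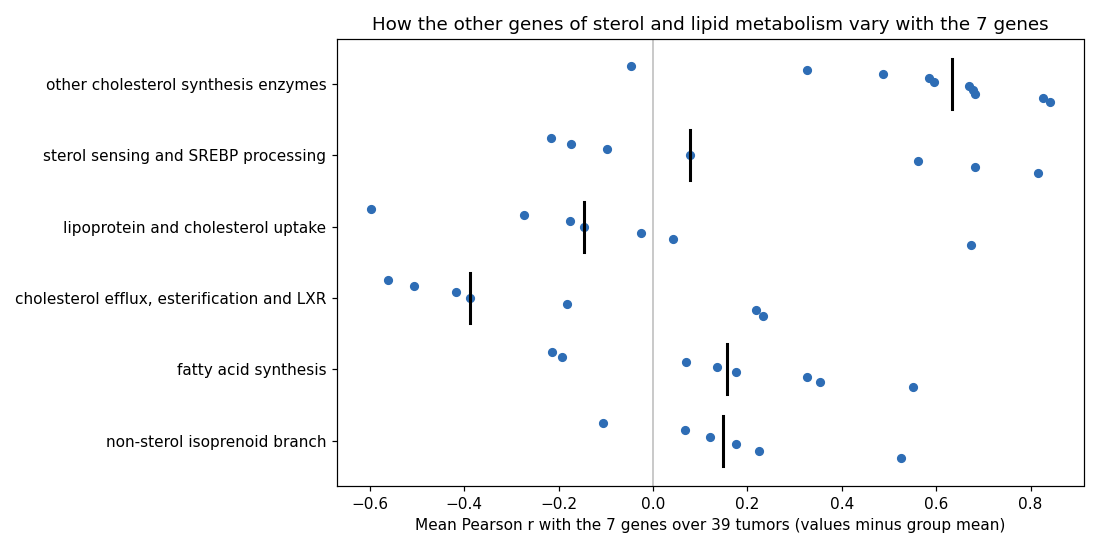
Mean Pearson's r of each gene of the 6 pathway lists with the 7 members over 39 tumors (horizontal axis, values minus group mean), 1 row per list, points for genes and black bars for list medians. Most synthesis enzymes lie near or above their median of 0.63, with Ebp and Tm7sf2 apart at -0.047 and 0.33, and the efflux, esterification and LXR genes lie mostly below 0 with a median of -0.39.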

How the data were processed

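RNA from 39 flash-frozen primary tumors was made into stranded libraries and sequenced on a NovaSeq. The authors mapped reads to mm10 with HISAT2, counted them per gene by strand (summarizeOverlaps, intersection non-empty), filtered low genes and deposited log2 values from the variance stabilizing transformation of DESeq2, for 14318 genes. Tool versions and the annotation are not given in the sources used here. The values were inverted to whole reads. Each of the 14318 genes has more than 10 reads in at least 8 tumors.

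Groups were compared on the deposited log2 values with limma 3.58.1 in R 4.3.3 (trended empirical Bayes), with Benjamini-Hochberg adjustment over all genes and a threshold of 0.05: per model for the 8 treatment comparisons, and over all 8 groups for the comparison of models and the difference of chitin effects. Correlations used values minus the group mean (Python 3.11.15, scipy 1.17.1). Scripts were tested on simulated data. Named genes are the 7 members, from 6 pathway lists the genes called between models (the 5 largest differences per sign at most) or, where none passed, the gene of smallest p, of which the smallest over all treatment comparisons is printed, and the 10 genes most like the members, 3 of which are not reported here. The 11 marker lists describe cell types and proliferation. The members and lists were chosen with earlier results of these data known. Promoters and positions are from RefSeq (GRCm38.p6), exon lengths from GENCODE M21. Alternatives were a filter on the lowest 25% of genes, no trend, other sets of samples in the fit, median centring, voom, array weights, a replicate block and leaving out each tumor.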

Additional observations from a re-analysis of the deposited data

Results flagged for a closer look

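In 4 of 56 combinations of gene and group, 1 tumor stood apart from the rest of its group by Dixon's test, which chance does in about 1 of 20. Sc5d accounted for 3 of them: untreated 4T1 tumor 5 was low at 8.47 against 8.84 to 8.89 in the other 3, 4T1 anti-PD-1 tumor 2 was high at 9.54 against 8.40 to 8.71, and untreated 66cl4 tumor 3 was high at 8.86 against 8.46 to 8.56. Idi1 was high in 66cl4 chitin tumor 2, at 10.20 against 9.26 to 9.50. The 3 high tumors were also the highest of their group in 6 or all 7 of the members, whereas in untreated 4T1 tumor 5 Hmgcs1 was the highest of its group at 9.67 while Sc5d was the lowest. No difference between the models in the chitin effect was called for a member.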

How the results depend on the processing

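The calls of Idi1, Hmgcs1 and Lss between the models held in every alternative and without each tumor, and Fdft1 in all 6 alternatives but not without each of 9 tumors. The number of members called between untreated models was 0 and became 1 (Idi1) with only the groups compared in the fit and under median centring, and ranged from 0 to 1 without single tumors. Values that were not called turned sign: under array weights Idi1 for 4T1 chitin minus untreated (0.18 to -0.037), Sqle between untreated models (-0.044 to 0.034) and Cyp51 between models (0.018 to -0.0075), which also turned under median centring (-0.0062) and voom (-0.0031). Without single tumors Cyp51 between models ranged from -0.020 to 0.069 and between untreated models from -0.017 to 0.21, Sqle between untreated models from -0.19 to 0.052, and Lss for 66cl4 chitin + anti-PD-1 minus untreated from -0.089 to 0.013. Over all 77 differences of a member, 31 of 525 values under other settings and 140 of 1911 without a tumor changed sign, of sizes up to 0.18 and 0.19, none of them a called value. The median r of the 21 pairs in 4T1 tumors ranged from 0.66 (without anti-PD-1 tumor 2) to 0.78 without single tumors and was 0.61 with the proliferation markers regressed out. In 66cl4 tumors it ranged from 0.79 to 0.87 without single tumors.

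Over all genes, the treatment comparisons called 0 genes but up to 960 under array weights (4T1 anti-PD-1), up to 60 with both models in 1 fit, up to 6 with the low filter, and without single tumors up to 80 (4T1 anti-PD-1 tumor 2) and 269 (66cl4 untreated tumor 3). No member was called in these. The difference of chitin effects called 14 genes, 1004 under array weights, 8 with the low filter and 0 (without untreated 4T1 tumor 5) to 677 (without 4T1 anti-PD-1 tumor 2). Same-numbered tumors of different treatments correlated at -0.39 to 0.45 in 4T1 (mean 0.010) and -0.30 to 0.54 in 66cl4 (mean 0.062). The means of other pairs were -0.00057 and -0.015. Of 19 4T1 tumors 3, and of 20 66cl4 tumors 8, correlated best with their own number. Whether the numbers pair tumors was not tested. With the replicate block 4 members were called between the models and 0 in the treatment comparisons, where all genes gave 0 to 16 calls. The difference of chitin effects called 104 genes with this block. With 4 or 5 tumors per group, member differences within a model had SEs of 0.058 to 0.26, so small changes were not detectable.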
